A study of Mus musculus with 24 samples.

Results

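The placental lactogens and proliferins of trophoblast giant cells were followed in the maternal-fetal interface (MFI) of the mouse through gestation. The set also held the related prolactin family genes Prl7d1, Prl4a1 and Prl2b1. These hormone genes were taken by symbol from the deposited table of read counts and comprised Prl3d1, Prl3d2, Prl3d3, Prl3b1, Prl2c2, Prl2c3, Prl2c5, Prl4a1, Prl7d1 and Prl2b1, 10 of the 55401 genes listed. Bulk RNA sequencing of whole MFI tissue was available for wild-type (WT) C57BL/6 mice and for homozygous C1qtnf6-KO mice of strain C57BL/6JCya, which carry a CRISPR/Cas9 deletion of exons of C1qtnf6, the gene of the secreted protein CTRP6. Both genotypes were on the C57BL/6 background and were collected at stages that the labels give by gestation day (gd), from gd10.5 through gd14.5 and gd16.5 to gd19.5, with 3 libraries in each of the 8 groups. The labels did not say whether the libraries of a group came from separate dams or litters, so that the p-values measure the spread between these libraries alone.

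The mouse carries an expanded family of prolactin-related hormone genes that trophoblast cells of the placenta express. Giant cells at the border with the decidua secrete placental lactogens, which act through the prolactin receptor to keep the corpus luteum producing progesterone and to adapt the mother to pregnancy, and they secrete proliferins, which promote the growth of maternal vessels towards the implantation site. Placental lactogen I is the lactogen of midgestation and is followed by placental lactogen II, which continues to term.

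Total counts per library ranged from 20975717 to 37383108, and all 10 genes passed the filter on low counts applied over the 24 libraries, as did 19299 genes in all. C1qtnf6 stood between 64.7 and 168 CPM (counts scaled to a library size of 1e06 after TMM normalization) in the WT libraries and between 0.0341 and 2.05 CPM in the KO libraries. The library of KO gd10.5 replicate 2 stood apart. Over 4318 genes outside the prolactin family that differed between WT gd10.5 and WT gd14.5, its median position was 48.2% of the way from gd10.5 to gd14.5, whereas the other 5 gd10.5 libraries lay between -11.04% and 11.1%. Its summed Y-linked genes were at 71.1 CPM, against no more than 0.311 CPM in the other gd10.5 libraries. For KO against WT at gd10.5 and for KO gd14.5 against gd10.5, values that leaving out this library moved by more than 1.5-fold are given with and without it. Of 7 markers of giant cells other than prolactin genes, 5 (Hand1, Ctsq, Ctsj, Adm and Lifr) were at 42.6 CPM or more in every library. Cts8 was at 0 in 18 of the 24 libraries and at no more than 0.374 CPM in the others. Cts7 stood at 3.85 to 43.4 CPM at gd10.5 and at 0.0398 to 0.555 CPM in the 18 later libraries, in 3 of which it had no more than 3 counts. In whole tissue, fewer cells of a type and less RNA per cell cannot be told apart.

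All 10 genes lie on chromosome 13 of GRCm38. The 3 Prl2c genes occupied 401 kb between positions 12790816 and 13191923, and the other 7 occupied 929 kb between positions 27094190 and 28023559. The 3 Prl3d genes are close copies with coding identities of 97.9% to 98.7%, and those of the 3 Prl2c genes ranged from 92.8% to 99.6%, with 3 differing bases in 672 between Prl2c2 and Prl2c3. Among the remaining 39 pairs of members the identity was 53.0% to 62.6%. Stretches of 90 coding bases from GENCODE M21 on GRCm38 show how little separates the copies to which reads had to be assigned, and capitals mark the positions at which the 3 copies of a set differ.
Prl3d1, chr13:27094883-27094972, + strand: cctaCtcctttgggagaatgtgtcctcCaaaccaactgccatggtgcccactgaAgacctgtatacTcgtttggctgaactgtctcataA
Prl3d2, chr13:27122354-27122443, + strand: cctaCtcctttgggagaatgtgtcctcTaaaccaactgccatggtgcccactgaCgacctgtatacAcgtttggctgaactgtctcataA
Prl3d3, chr13:27157447-27157536, + strand: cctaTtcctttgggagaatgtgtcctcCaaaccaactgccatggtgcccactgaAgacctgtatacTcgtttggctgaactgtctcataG
Prl2c2, chr13:12998582-12998671, - strand: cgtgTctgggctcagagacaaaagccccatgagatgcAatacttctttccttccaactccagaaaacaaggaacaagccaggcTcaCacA
Prl2c3, chr13:12793289-12793378, - strand: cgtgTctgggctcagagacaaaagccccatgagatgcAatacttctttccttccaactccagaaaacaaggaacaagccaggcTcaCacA
Prl2c5, chr13:13189385-13189474, + strand: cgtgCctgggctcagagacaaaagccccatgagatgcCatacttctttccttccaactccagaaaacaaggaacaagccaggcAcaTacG
Prl2c2 and Prl2c3 were identical over this stretch. Of all windows of 150 bases in its transcript, the read length, 50.9% for Prl2c2 and 49.9% for Prl2c3 occurred unchanged in each other or in Gm7040. The share was 32.7% for both Prl3d2 and Prl3d3 and 9.62% for Prl3d1, and the other 5 genes shared no window. Under the default counting that was used, reads that map to several places were left out, so that the counts of these copies are uncertain.

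**Figure D1:**
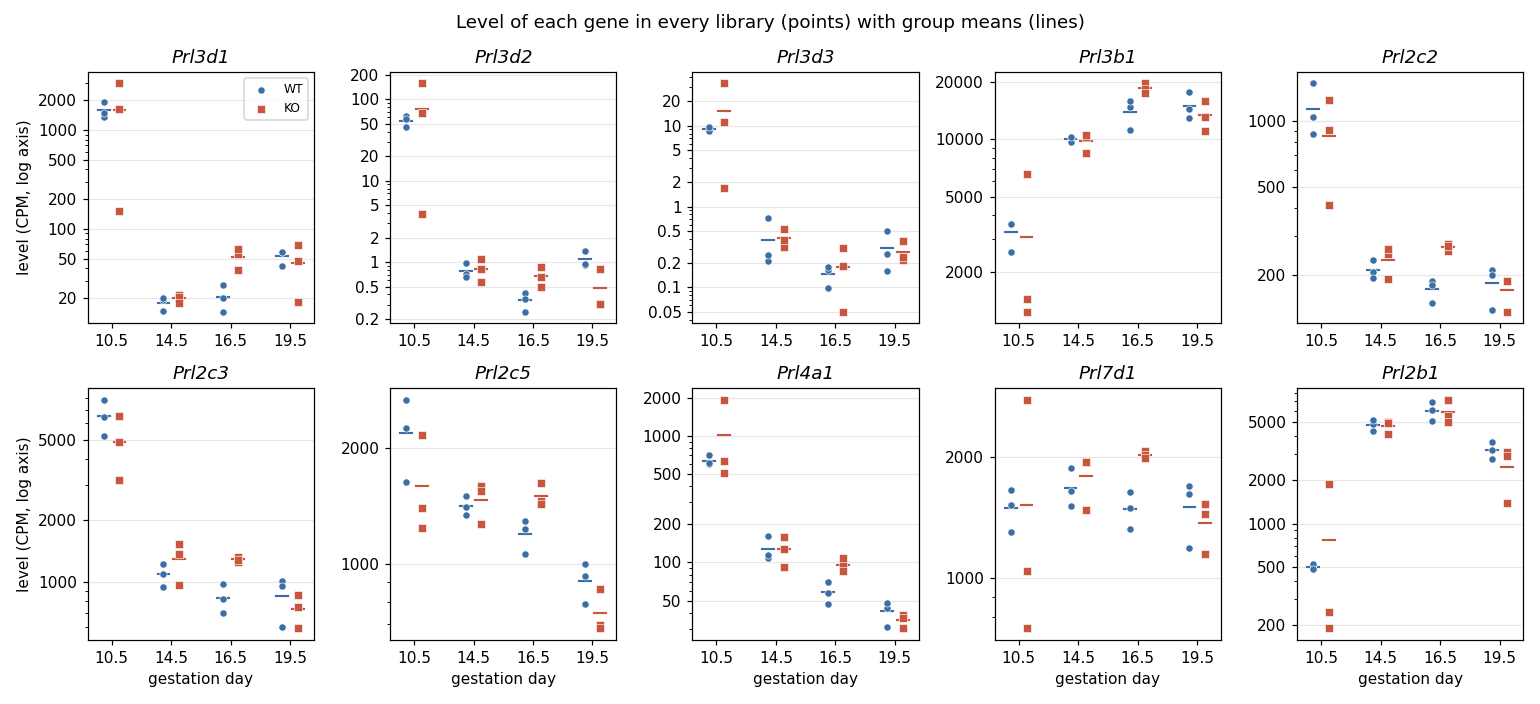
Level of each of the 10 genes in every library in CPM on a log axis, by gestation day, for WT (circles) and KO (squares), with short lines at the group means. Prl3d1 in WT drops from 1354 to 1939 CPM at gd10.5 to 14.8 to 19.99 CPM at gd14.5, while Prl3b1 climbs, and KO gd10.5 replicate 2 lies away from its group in several panels.

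The first comparison asked how the hormones changed between stages, and most calls fell between gd10.5 and gd14.5. Prl3d1, at chr13:27094190-27100258 on the plus strand, encodes placental lactogen I. Its level in the 3 WT libraries was 1939, 1354 and 1477 CPM at gd10.5 and 19.0, 14.8 and 19.99 CPM at gd14.5. No gd14.5 library came near the lowest gd10.5 library, and Prl3d1 fell by 6.47 ± 0.732 (SE) on the log2 scale, an 88.9-fold decrease (adjusted p = 1.11e-06, edgeR). Afterwards it read 26.9, 20.2 and 14.45 CPM at gd16.5 and 42.2, 58.1 and 58.8 CPM at gd19.5. The 3 gd19.5 libraries all lay above the libraries of gd14.5 and gd16.5, with log2 differences of 1.57 from gd14.5 (adjusted p = 0.0511) and 1.37 from gd16.5 (adjusted p = 0.199) that did not pass. In fits of the 6 libraries of each pair alone both passed, with adjusted p of 8.85e-06 and 0.00888.

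Prl3d2 and Prl3d3, the copies of the placental lactogen I gene, followed at lower levels, with WT means at gd10.5 of 63.8 and 10.54 CPM per kilobase against 1817 CPM per kilobase for Prl3d1. Prl3d2 stood at 61.6, 45.2 and 57.1 CPM in WT at gd10.5 and at 0.711, 0.663 and 0.968 CPM at gd14.5, a fall by 6.15 ± 0.812 (adjusted p = 5.20e-06). Prl3d3 went from 8.88, 8.59 and 9.69 CPM to 0.211, 0.249 and 0.715 CPM, a fall by 4.62 ± 0.728 (adjusted p = 3.25e-05) that became 5.27 without WT gd14.5 replicate 3. Prl3d1 supplied between 92.2% and 99.0% of the counts of the 3 genes in every library. After gd10.5 Prl3d3 had between 1 and 17 counts per library in both genotypes, and Prl3d2 between 5 and 42, so that later differences in these copies were barely measurable at this depth.

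Prl3b1, which lies at chr13:27241847-27249683 on the plus strand and encodes placental lactogen II, moved the other way. It measured 3596, 3588 and 2553 CPM in WT at gd10.5 and 10202, 9689.8 and 10284 CPM at gd14.5, and every later library was higher than every gd10.5 library. The increase was 1.63 ± 0.413 on the log2 scale, or 3.10-fold (adjusted p = 0.00250). The level then reached 14691, 15789 and 11220 CPM at gd16.5 and 12965, 14427 and 17648 CPM at gd19.5, and neither step passed the test (adjusted p = 0.468 and 0.909). Ranked by CPM per kilobase of exon, Prl3b1 was number 8 of all genes listed in WT at gd10.5, number 2 at gd14.5 and number 1 at gd16.5 and gd19.5, where it took between 1.04% and 1.70% of all counts. Prl3d1 went from rank 14 to ranks 2384, 2111 and 644.

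Per kilobase, the level of Prl3b1 was 1.52, 2.18 and 1.42 times that of Prl3d1 in the 3 WT libraries at gd10.5. The ratio was 422 to 539 at gd14.5, 448 to 643 at gd16.5 and 204 to 252 at gd19.5. At gd10.5 the KO libraries read 0.341, 35.5 and 0.730, so that Prl3d1 was the higher of the 2 lactogens in 2 of the KO libraries, and replicate 2 fell outside the range of the other gd10.5 libraries. The later KO ratios were 342 to 478 at gd14.5, 240 to 373 at gd16.5 and 132.5 to 592.5 at gd19.5, the last of these ranges being the widest of the 3.

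**Figure D2:**
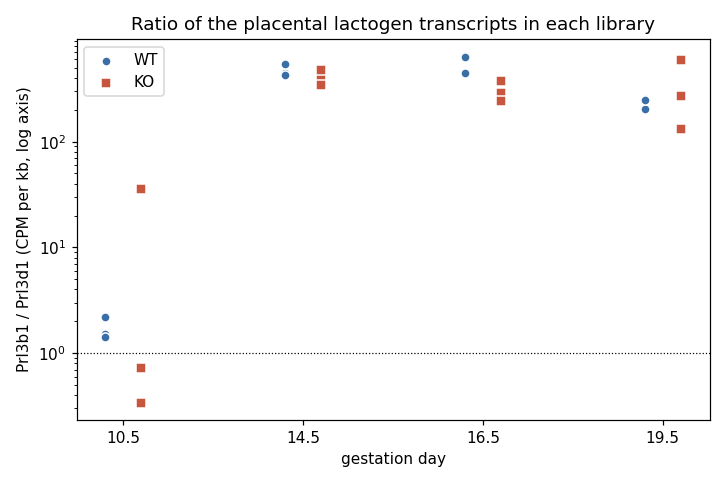
Ratio of Prl3b1 to Prl3d1, each in CPM per kilobase, in every library on a log axis by gestation day, for WT (circles) and KO (squares). The WT libraries rise from 1.42 to 2.18 at gd10.5 to 204 or more at all later stages, and KO gd10.5 replicate 2 at 35.5 lies between those levels.

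The proliferins are a set of closely related angiogenic hormones, and they did not fall equally. Prl2c3 stood at 7837, 6461 and 5222 CPM in WT at gd10.5, where it ranked number 3 of all genes per kilobase, and at 1092.5, 943 and 1224 CPM at gd14.5. The groups were far apart, with a fall by 2.58 ± 0.262 (adjusted p = 3.61e-07), or 5.99-fold. Prl2c2, the gene of proliferin itself, fell by 2.42 ± 0.283 (adjusted p = 1.54e-06), from 1474, 1042 and 873 CPM to 207, 194 and 233 CPM. In the later WT libraries they lay at 139 to 210 CPM (Prl2c2) and 601 to 1007 CPM (Prl2c3) at gd16.5 and gd19.5.

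Prl2c5, the third proliferin gene, changed less. Its WT levels were 2657, 2252 and 1632 CPM at gd10.5 and 1402, 1339 and 1498 CPM at gd14.5. The groups did not overlap, but the difference of -0.63 ± 0.188 on the log2 scale (adjusted p = 0.00864) was under the fold limit of 2 used for calls. By gd19.5 it had reached 787, 934.5 and 999 CPM, a fall by 1.27 from gd10.5 that passed, as did 29.5% of all genes between these stages. Prl2c3 thus exceeded Prl2c5 in CPM per kilobase by 2.48 to 2.77 times in WT at gd10.5, whereas the ratio lay between 0.546 and 0.933 in the WT libraries of the later stages. For Prl2c3, 49.9% of the 150-base windows occur in another gene, and for Prl2c5 none do. Reads that map to several places were left out, so that which of these genes was higher after gd10.5 is uncertain.

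Prl7d1 encodes proliferin-related protein, an inhibitor of angiogenesis, and it was not called between any pair of stages in WT. Its level was 1298, 1652 and 1518.5 CPM at gd10.5 and 1644, 1513 and 1875 CPM at gd14.5, and the groups overlapped (log2 difference 0.17 ± 0.302, adjusted p = 0.652). Over all 12 WT libraries it ranged from 1188 to 1875 CPM.

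Prl4a1 encodes prolactin-like protein A, which is known to bind uterine natural killer (NK) cells. Its WT levels went from 596, 613 and 700.2 CPM at gd10.5 to 108, 115 and 163 CPM at gd14.5, 57.7, 70.6 and 46.7 CPM at gd16.5 and 31.2, 44.1 and 48.0 CPM at gd19.5. The groups of gd10.5, gd14.5 and gd16.5 did not overlap, and those of gd16.5 and gd19.5 did. The fall by 2.31 ± 0.355 to gd14.5 passed (adjusted p = 2.49e-05). The next fall, by 1.14 ± 0.346 (adjusted p = 0.0267), passed too, but the call was lost without WT gd14.5 replicate 3 (a fall by 0.93, adjusted p = 0.119), without WT gd16.5 replicate 1 (a fall by 1.12, adjusted p = 0.0744) and without WT gd16.5 replicate 3 (log2 difference -0.996, adjusted p = 0.103).

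Prl2b1, the gene of prolactin-like protein K at chr13:27383339-27390846 on the minus strand, showed the larger of the 2 rises from gd10.5 to gd14.5. It measured 482, 529 and 489 CPM in WT at gd10.5 and 4377, 4885 and 5158 CPM at gd14.5, an increase of 3.26 ± 0.577 or 9.61-fold (adjusted p = 0.000104). At gd16.5 the level was 6043, 6895 and 5081 CPM, and at gd19.5 it was 3213, 2781 and 3669 CPM. The gd19.5 libraries all lay below those of gd14.5 and gd16.5, and the difference from gd16.5, -0.90, did not pass (adjusted p = 0.359). Per kilobase Prl2b1 was the second of the 10 genes from gd14.5 on in both genotypes.

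A gene was called when its adjusted p was under 0.05 and it differed by more than 2-fold. Between gd14.5 and gd10.5 in WT, 8 of the 10 genes were called, 2 higher and 6 lower, where 22.5% of all genes tested were called and 11.9% were called lower. The median log2 difference of the 10 was -2.36, while that of all genes lay within 0.025 of 0 in every stage comparison. In KO the count was again 2 higher and 6 lower, against a background of 20.1%. Later steps called few of them. Prl4a1 was the 1 gene called between gd16.5 and gd14.5 in WT (5.09% of all genes) and 0 were called between gd19.5 and gd16.5 (1.49%), where 2 had an unadjusted p under 0.05 (20.6% of all genes). In KO the counts were 0 between gd16.5 and gd14.5 (8.61%), with 2 at an unadjusted p under 0.05 (35.9%), and 2 between gd19.5 and gd16.5 (2.19%). DESeq2 on all 24 libraries also called 0 in both comparisons with a count of 0.

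**Figure D3:**
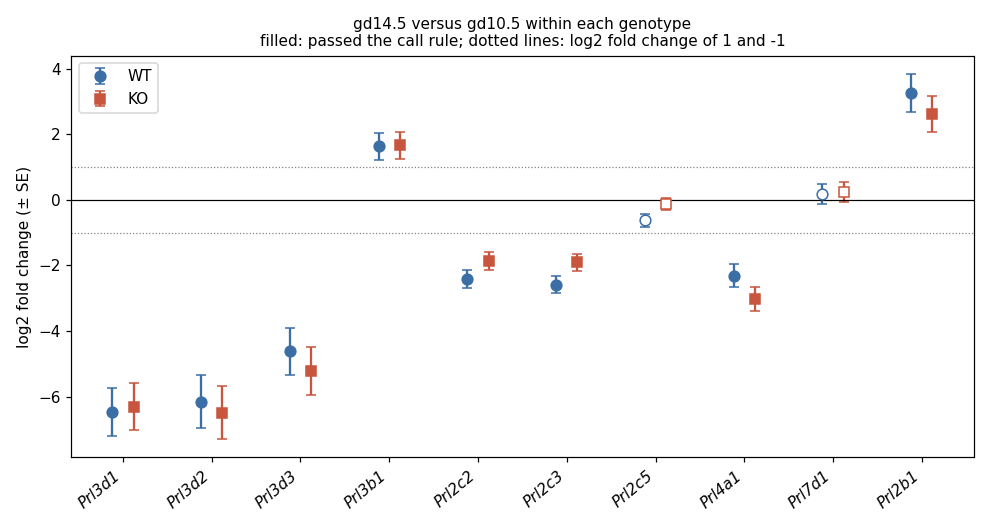
Log2 fold change from gd10.5 to gd14.5 with its standard error for each gene in WT (circles) and KO (squares), from the edgeR fit of 24 libraries, with filled symbols for called genes and dotted lines at 1 and -1. Prl3b1 and Prl2b1 lie above the upper line and 6 genes lie below the lower line in both genotypes.

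The size of the KO changes from gd10.5 to gd14.5 depended on single gd10.5 libraries. With all libraries, Prl3d1 fell by 6.30, Prl2c2 by 1.86, Prl2c3 by 1.91 and Prl4a1 by 3.01 on the log2 scale, whereas Prl3b1 rose by 1.67 and Prl2b1 by 2.62. Without the library that stood apart, replicate 2, these falls were 6.84, 2.19, 2.14 and 3.33. Without KO gd10.5 replicate 1, Prl3d1 fell by 5.47 and Prl4a1 by 2.17. That omission also changed the log2 difference of Prl3d2 from -6.49 to -5.40 and that of Prl3d3 from -5.23 to -3.96, and all of these were called. In replicate 2 Prl3d1 was at 151 CPM against 2982 and 1623 CPM in the other 2 KO libraries, Prl3b1 at 6540.4 against 1239 and 1443 CPM, and Prl2b1 at 1871 against 244 and 189 CPM. Without it the rise of Prl3b1 was 2.87 (adjusted p = 1.09e-09) and that of Prl2b1 4.45 (adjusted p = 3.41e-10). Prl7d1 differed by 0.23 with all libraries (adjusted p = 0.544) and by 1.00 without replicate 2, just under the fold limit (adjusted p = 9.95e-05). The number called without replicate 2 was again 8, in a fit that called 5064 of 19670 genes. In a fit of the 6 KO libraries of these stages alone, with that replicate, Prl3b1 and Prl2b1 were no longer called (adjusted p = 0.0840 and 0.0559). From gd10.5 to gd16.5 in KO, Prl7d1 differed by 0.41 with all libraries (adjusted p = 0.248, edgeR). Without replicate 2 it differed by 1.18 and was called (adjusted p = 1.25e-05). From gd10.5 to gd19.5 in KO the values of Prl7d1 were -0.15 with and 0.61 without replicate 2, and neither was called. The summed level of the spongiotrophoblast and glycogen cell markers was 12681 CPM in that library and 961 and 1223 CPM in the other 2, and its part in these values was not tested.

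In KO from gd16.5 to gd19.5, Prl2c5 fell by 1.01 ± 0.190 (adjusted p = 0.00558), from 1453, 1432.5 and 1618 CPM to 696, 682 and 864 CPM. Prl4a1 fell by 1.46 ± 0.350 (adjusted p = 0.0201), from 96.1, 84.9 and 108 CPM to 38.6, 30.1 and 36.6 CPM. No KO library of gd19.5 reached the lowest gd16.5 library in either gene. Both were near a limit of the call rule. With each library left out in turn, the fall of Prl2c5 stayed between 0.94 and 1.13 and that of Prl4a1 between 1.35 and 1.54. Prl2c5 dropped under the fold limit without KO gd16.5 replicate 3, KO gd19.5 replicate 1 or KO gd19.5 replicate 2 (falls by 0.95, 0.95 and 0.94), and the adjusted p of Prl4a1 was over 0.05 without KO gd16.5 replicate 2 (adjusted p = 0.0518), KO gd16.5 replicate 3 (0.0514), KO gd19.5 replicate 2 (0.114) or KO gd19.5 replicate 3 (0.0568).

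Markers of several cell types moved with these stages. From gd10.5 to gd14.5 in WT, the summed level of 7 giant cell markers other than prolactin genes went from 2653 to 3080 CPM up to 8010.3 to 9160.1 CPM, with 3 of 6 tested called higher and 1 lower. Ctsj was most of that sum, at 2030 to 2426 CPM and then 5224 to 5825 CPM, while Hand1 stood at 173 to 260 CPM and then 168 to 189 CPM. The sum of 7 spongiotrophoblast and glycogen cell markers went from 1574 to 2347 CPM up to 28119 to 30819 CPM, with 5 of 7 called higher. The 5 NK cell markers were all called lower, with a sum of 647 to 986 CPM going to 94.7 to 152 CPM. Of these, Ncr1 and Klrb1c had no more than 3 counts in 18 of the 24 libraries and reached at most 4.72 and 2.68 CPM. Genes this low in most libraries pass the filter on low counts only through the groups where they are high, so that their calls carry little weight. The decidual stroma sum went from 6667 to 14254 CPM to 2938 to 3212 CPM, with 6 of 7 called lower and 1 higher. That list includes the prolactin family genes Prl3c1 and Prl8a2, the latter at 1472 to 12660 CPM over the 24 libraries. The part of all these markers in the changes of the hormone genes was not tested.

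The promoters held a shared run of bases. RefSeq (GRCm38.p6) promoter windows were found for 9 of the 10 genes, Prl2c2 being absent from the table. All patterns of 5 bases, 2 free bases and 4 bases were compared among these 9 windows, and 1, TATATNNGAGG (N is any base), occurred on the strand of the gene in all 9. It occurred in 28 of the 32817 promoters of the same length in the table (0.0853%; 50 or 0.152% on either strand). These belonged to 26 genes, of which 12 were prolactin family genes, and 14 were not. Among the family genes that are not in the set, Prl2a1, Prl7a1 and Prl7a2 were the 3 of 13 that held it. The form of the pattern (5, 2 and 4 bases) was chosen after the promoters of the members had been read, so that its share in them is a description. It was held by genes that fell, such as Prl3d1 and Prl2c3, by Prl7d1, which did not pass in WT, and by genes that rose, such as Prl3b1 and Prl2b1. The 250 bases before the start site of these 5 are printed from 5′ to 3′ with the match in capitals.
Prl3d1, chr13:27093939-27094188, + strand: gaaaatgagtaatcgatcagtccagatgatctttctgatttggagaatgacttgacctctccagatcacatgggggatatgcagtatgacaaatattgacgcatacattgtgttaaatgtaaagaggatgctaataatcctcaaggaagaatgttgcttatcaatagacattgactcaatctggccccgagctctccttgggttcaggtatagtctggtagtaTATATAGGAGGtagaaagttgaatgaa
Prl3b1, chr13:27242180-27242429, + strand: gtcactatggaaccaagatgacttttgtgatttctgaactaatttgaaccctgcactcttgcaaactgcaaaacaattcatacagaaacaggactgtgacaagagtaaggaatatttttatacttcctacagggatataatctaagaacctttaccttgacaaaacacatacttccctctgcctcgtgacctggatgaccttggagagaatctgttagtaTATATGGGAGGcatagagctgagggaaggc
Prl2c3, chr13:12800080-12800329, - strand: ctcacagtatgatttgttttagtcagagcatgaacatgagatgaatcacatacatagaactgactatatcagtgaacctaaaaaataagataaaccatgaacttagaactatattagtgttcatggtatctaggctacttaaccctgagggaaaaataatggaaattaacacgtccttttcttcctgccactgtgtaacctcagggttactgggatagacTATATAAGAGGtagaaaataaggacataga
Prl7d1, chr13:27716738-27716987, - strand: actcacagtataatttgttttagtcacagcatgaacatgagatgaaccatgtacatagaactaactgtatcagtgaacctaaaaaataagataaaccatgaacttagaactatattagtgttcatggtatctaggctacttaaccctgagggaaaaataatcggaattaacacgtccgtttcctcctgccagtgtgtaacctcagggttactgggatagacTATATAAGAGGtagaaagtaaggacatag
Prl2b1, chr13:27390847-27391096, - strand: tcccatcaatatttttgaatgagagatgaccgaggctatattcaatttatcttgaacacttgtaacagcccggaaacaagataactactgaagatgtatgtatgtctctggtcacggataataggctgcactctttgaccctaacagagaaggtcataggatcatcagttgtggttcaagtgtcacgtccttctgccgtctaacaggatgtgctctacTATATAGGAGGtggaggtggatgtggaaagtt
Prl2c3 and Prl7d1 were 94.0% identical over this window, Prl2c5 was 96.0% and 93.65% identical to them, and Prl3d1, Prl3d2 and Prl3d3 shared 83.0% to 96.5%. Such near copies count separately in the shares of the member promoters. The AP-1-like motif TGANTCA, which reads the same on both strands, was present in 4 of the 9 member promoters and in 6.75% of all promoters. The matches were TGACTCA in Prl3d1, Prl3d2 and Prl3d3, and TGAATCA in Prl2c3. The GATA motif GATAA, searched on both strands, was present in 8 of the 9 and in 22.6% of all. The matches of the 3 sequences did not overlap each other in these windows, and a match is a description of letters, not a measured binding site.

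The second comparison asked whether loss of C1qtnf6 changed the hormones at any stage. By the call rule, 0 of the 10 genes were called at gd10.5 (0.00572% of all genes tested were called) and 0 of 10 at gd14.5 (0.0166%), with 0 at an unadjusted p under 0.05 at both stages, where 0.801% and 6.78% of all genes had one. The counts were 0 of the 9 tested at gd16.5 (0.00586%), with 8 at an unadjusted p under 0.05, and 0 of 9 at gd19.5 (0.023%), with 2, where 11.1% and 13.5% of all genes had one. Prl3d3 was not tested at the last 2 stages because its counts were too low. Averaged over the 4 stages 0 of 10 were called by edgeR (0.00518%), with 0 at an unadjusted p under 0.05 (6.81% of all genes). The test that the KO difference varied between stages called 0 of 10, with 2 at an unadjusted p under 0.05, where 7.23% of all genes were. DESeq2 on all 24 libraries called 0 of the 10 genes at each stage, on average and in that test. At gd16.5 it called 43 of the 39570 genes fitted. DESeq2 on the 6 libraries of a stage called 1, Prl3d1 at gd16.5, where it called 47 of the 33554 genes fitted.

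At gd14.5 the KO libraries overlapped the WT libraries for every one of the 10 genes, where 6.41% of all genes had every KO library above WT and 6.1% every KO library below, and the log2 differences lay between -0.05 and 0.24. Prl3b1 read 10304, 8517 and 10488 CPM in KO against 10202, 9689.8 and 10284 CPM in WT. At gd10.5 the groups overlapped as well (1.83% of all genes had every KO library above WT and 2.35% every one below). There Prl3b1 differed by -0.08 ± 0.641 with all libraries and by -1.27 without KO replicate 2 (adjusted p = 0.470), Prl2b1 by 0.62 ± 0.842 and by -1.20 (adjusted p = 0.121), and Prl7d1 by 0.03 and by -0.72 (adjusted p = 0.9986). Prl3d1 differed by -0.0019 with all libraries, by 0.54 without KO replicate 2 and by -0.83 without KO replicate 1. The corresponding differences were 0.49, 1.05 and -0.60 for Prl3d2, 0.77, 1.30 and -0.50 for Prl3d3, and 0.69, 1.01 and -0.15 for Prl4a1, so that their sign depended on the library left out, and none passed. Prl4a1 was at 1927, 509 and 635 CPM in KO against 596, 613 and 700.2 CPM in WT at gd10.5, the first KO library being the highest of the 24.

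At gd16.5 the KO values lay above the WT values in most of the genes, by 1.27-fold to 2.57-fold, and the differences did not pass. Every KO library was above every WT library for 8 of the 9 genes tested, where 8.11% of all genes showed this, and 8 of 9 had an unadjusted p under 0.05 (11.1% of all genes). Prl3d1 read 55.7, 62.6 and 38.7 CPM in KO and 26.9, 20.2 and 14.45 CPM in WT, a log2 difference of 1.36 ± 0.253, or 2.57-fold (adjusted p = 0.334, edgeR). Without each library in turn its difference was 1.16 to 1.61, with adjusted p of 0.145 to 0.755. DESeq2 on the 6 libraries gave 1.34 with an adjusted p of 6.25e-06, edgeR without the filter on low counts gave 0.000530, and DESeq2 on all 24 libraries gave 0.303. Prl3d2, with the second largest difference, read 0.98 ± 0.344 or 1.98-fold (adjusted p = 0.431), with every KO library above WT, and DESeq2 on the 6 libraries gave it no adjusted p. It had 10, 21 and 19 counts in KO and 10, 8 and 5 counts in WT, so that scaling alone separated the lowest KO from the highest WT library.

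The other lactogen and the proliferins differed less. Prl3b1 was at 19664, 18295 and 17591 CPM in KO against 14691, 15789 and 11220 CPM in WT (log2 difference 0.43 ± 0.154, adjusted p = 0.431). Prl2c2 was at 257, 275 and 272 CPM against 188, 181 and 149 CPM (0.64 ± 0.102, adjusted p = 0.233), the lowest adjusted p among the 9 tested. All 3 KO libraries of Prl2c2 lay close together and above the WT libraries. Prl2c3 differed by 0.64, Prl2c5 by 0.34, Prl4a1 by 0.73 and Prl7d1 by 0.46, and their adjusted p lay between 0.354 and 0.421. These values depended on the fit. DESeq2 on the 6 libraries gave an adjusted p under 0.05, with no fold limit, to 5 of the 8 genes that had one (1.12% of all genes), which were Prl3d1, Prl2c2 (2.08e-05), Prl2c3 (0.000437), Prl4a1 (0.00353) and Prl7d1 (0.00438). EdgeR without the filter did so for 4 of 10 (0.34% of all genes), Prl3d1, Prl2c2 (0.00813), Prl2c3 (0.0417) and Prl4a1 (0.0105), and DESeq2 on all 24 libraries for 0. Other than Prl3d1, they were under the fold limit of 2. Prl2b1 was the exception, with overlapping groups and a difference of -0.02 ± 0.173.

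**Figure D4:**
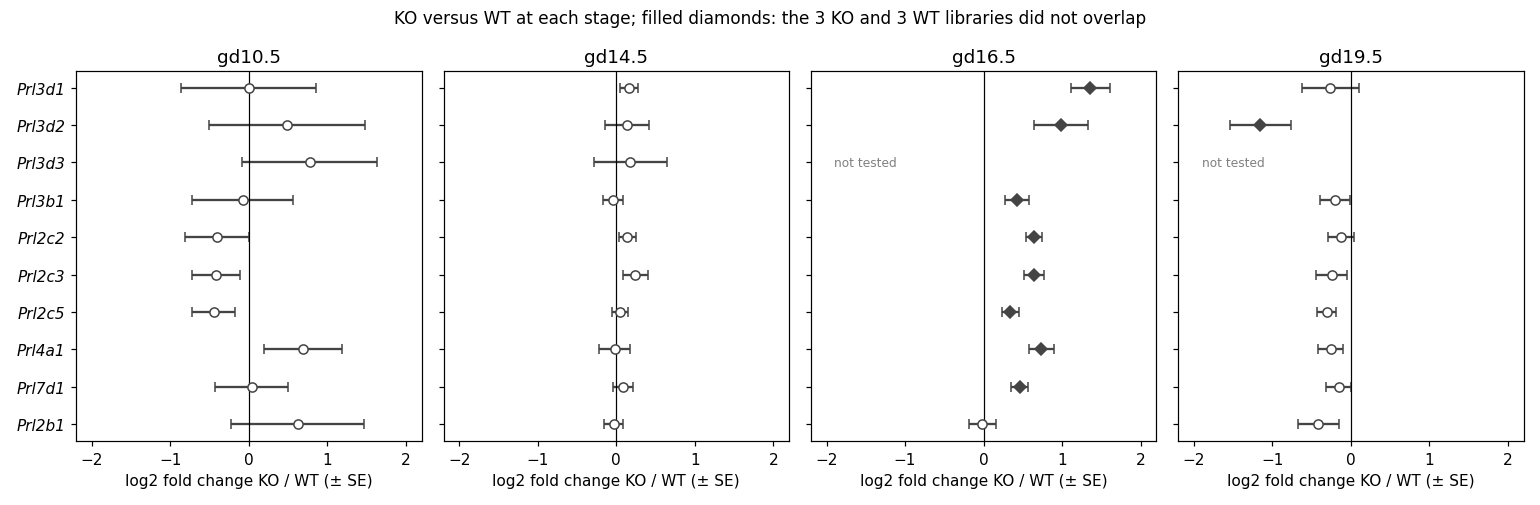
Log2 fold change of KO against WT with its standard error for each gene at each of the 4 stages, from the edgeR fit of the 6 libraries of a stage. At gd16.5 8 of 9 genes lie between 0.34 and 1.36 and Prl2b1 lies at -0.02, while at gd19.5 the 9 genes lie between -1.15 and -0.13.

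The median difference of the 9 genes at gd16.5 was 0.64. The prolactin family genes outside the set gave a median of 0.60, with 9 of 15 tested above WT in every library and 14 of 15 positive. The 10 genes took 2.52% to 2.66% of all counts in the KO libraries of gd16.5 and 1.81% to 2.45% in the WT libraries. Other values separated the same 6 libraries, and 9.62% of all genes had every KO library below WT. The summed spongiotrophoblast and glycogen cell markers were at 42576 to 47063 CPM in KO and 27304 to 36180 CPM in WT, with 2 of 7 genes above WT in every library. The labyrinth markers were at 509 to 710.3 CPM and 737 to 859 CPM, with 3 of 6 tested below, and Synb was at or under 3 counts in every library. The NK cell markers were at 11.03 to 18.0 CPM and 33.6 to 53.9 CPM, with 2 of 2 tested below. The uterine muscle markers were at 101 to 108 CPM and 130.4 to 165 CPM, with 2 of 4 below. The TMM factors were 0.872 to 0.886 and 0.922 to 0.932. The giant cell markers overlapped, at 19496 to 23700 CPM and 14750 to 20402 CPM, with 0 of 5 tested above and 1 below. The yolk sac markers were at 7160, 19932 and 194 CPM in the KO libraries and at 7464, 231 and 213 CPM in the WT libraries. The summed Y-linked genes were at 194, 188 and 1.14 CPM in the KO libraries and at 89.2, 0.663 and 0.487 CPM in the WT libraries. With expression of Y-linked genes as a covariate the difference of Prl3d1 was 1.08 (adjusted p = 0.1003). The part of the cell type markers in the differences was not tested.

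At gd19.5 the differences had the other sign. All 9 genes tested had negative differences, with a median of -0.26, and the groups overlapped for 8 of them. Prl3d2 was the exception, at 0.306, 0.818 and 0.307 CPM in KO and 0.916, 0.934 and 1.38 CPM in WT (-1.15 ± 0.390, adjusted p = 0.267), a gene of 7 to 33 counts per library. For groups that do not overlap with KO below, the share among all genes was 8.58%. EdgeR without the filter gave an adjusted p under 0.05, with no fold limit, to 3 of 10 genes (1.98% of all genes), Prl3d2 (0.0158), Prl2c5 (0.0344) and Prl2b1 (0.00267), and DESeq2 to 0 on the 6 and on the 24 libraries. Prl3d1 ranged widely among the KO libraries of gd19.5, at 18.2, 68.6 and 47.7 CPM, around the WT values of 42.2, 58.1 and 58.8 CPM.

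The variation of the KO difference between stages was lowest in adjusted p for Prl2c3 (0.665, unadjusted p = 0.0299, edgeR), followed in unadjusted p by Prl2c5 (0.0377). Without KO gd10.5 replicate 2, Prl3b1 alone of the 10 passed (adjusted p = 0.0234), in a fit that called 42 of 19670 genes. Its KO differences without that library were -1.27 at gd10.5, and at the later stages, which that library does not enter, they were -0.05, 0.43 and -0.20.

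Receptors and signal genes of the lactogens were measured in the same libraries. Prlr, the prolactin receptor, was at 17.6 ± 4.73 CPM (SD, n = 3) in WT at gd10.5 and at 11.02 ± 1.30, 11.1 ± 2.26 and 10.7 ± 1.86 CPM at the later stages, and its difference of -0.67 from gd10.5 to gd14.5 was under the fold limit (adjusted p = 0.00952). Igf2r, the mannose 6-phosphate receptor that proliferin can bind, had means of 259, 323, 437 and 352 CPM over the 4 stages, and no adjacent step passed. Of the 10 genes listed, Socs3, an inhibitor of cytokine receptor signalling, was the 1 called between gd10.5 and gd14.5 in WT, a lower share than the 22.5% of all genes, and went from 47.5 ± 5.08 to 17.8 ± 2.08 CPM (a fall by 1.42, adjusted p = 6.82e-06). Ghr, the growth hormone receptor, had the largest positive difference of the list over that step, 0.84 (adjusted p = 0.00200), under the fold limit. Socs2, a feedback inhibitor of the same signalling, rose by 1.67 from gd10.5 to gd19.5 (adjusted p = 2.61e-07).

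Among 12 regulators of giant cells and their precursors, Fosl1, a component of AP-1, was the 1 called between gd10.5 and gd14.5 in WT, again under the 22.5% of all genes, with a fall by 1.56 (adjusted p = 0.00103). Hand1, the basic helix-loop-helix factor of giant cells, and Gata2 and Gata3, which are known to activate the promoter of Prl3d1, were not called. Their log2 differences over the same step were -0.21, -0.09 and -0.27 (adjusted p = 0.271, 0.614 and 0.0413). The part of these regulators in the changes of the hormone genes was not tested. Ascl2, which maintains spongiotrophoblast precursors, fell by 1.69 from gd14.5 to gd16.5 (adjusted p = 0.000710). In KO against WT, 0 of the 10 receptor and signal genes and 0 of the 12 regulators were called by edgeR at any stage. The number of receptor and signal genes with an unadjusted p under 0.05 was 0, 1, 0 and 1 over the 4 stages in order, and that of regulators 0, 0, 2 and 4, where 0.801%, 6.78%, 11.1% and 13.5% of all genes had one.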

How the data were processed

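The authors deposited 1 table of raw gene counts for 24 libraries, with gene positions and lengths. Per the study's methods and the submitters' processing notes, stranded mRNA libraries were read as pairs of 150 bases, trimmed with Trim Galore 0.6.4, aligned to GRCm38 with STAR 2.7.3a and counted with featureCounts of Subread 2.0.0 at default settings, which ignore strand and drop reads that map to several places. The study itself used DESeq2. KO libraries are numbered from 3 in their titles, and the numbers 1 to 3 of their descriptions are used. In R 4.3.3, edgeR 4.0.16 (quasi-likelihood, TMM, minimum count 10, minimum total count 15) fitted the 6 libraries of a stage for KO against WT, and all 24 libraries for stages, the average and the interaction. A call needed a Benjamini-Hochberg adjusted p under 0.05 over all genes tested and an absolute log2 fold change over 1. Log2 CPM used a prior count of 2, and the detection floor was 3 counts. DESeq2 1.42.0 was an alternative. Coding identities used Biopython 1.88 on GENCODE M21 transcripts.

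All 10 members are named by rule. Listed receptors and regulators are counted, and Prlr, Igf2r, Hand1, Gata2 and Gata3 are always named, others by the largest change in a WT stage comparison. The members and lists were chosen with earlier results of these data known. On simulated data, edgeR gave an adjusted p under 0.05 and the right sign to 76% of genes changed 2-fold at gd16.5. For genes changed 4-fold the share was 99%, and 1.69% of the genes past that limit were false. DESeq2 on the same simulated data gave 84%, 98% and 7.61%. No fold limit entered these shares, and the simulated spread of each gene was taken from the trend over all genes. They therefore do not give the power of the call rule in the real libraries. Replicate numbers do not pair the libraries. Deviations of libraries with the same number correlated at -0.455 to 0.406 over 12 pairs, 5 of them over 0.1. Chi-square per degree of freedom between libraries of the same group was 7.86 to 169, above counting noise.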

Additional observations from a re-analysis of the deposited data

How the results depend on the processing

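Single values of the 10 genes were recomputed 852 times for KO against WT, 286 times for the interaction and 1627 times for stages. Of these, 849, 285 and 1593 kept their side of the limits, 18 stage values lost a call, and 3, 1 and 16 gained one. Called values reversed 0 times, while 98 values that were not called changed sign.

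The number called in KO against WT at gd16.5 was 1 in place of 0 without the expression filter and with DESeq2 on the 6 libraries, Prl3d1 in both. These fits called 50 and 47 of 33554 genes. At gd19.5 it was 1 without the filter (Prl3d2), in a fit that called 82 of 34111 genes. Leaving out 1 library moved the interaction count from 0 to between 0 and 1, with 1 (Prl3b1) without KO gd10.5 replicate 2. With the close copies of Prl3d and of Prl2c summed, an alternative chosen after seeing the data, 5 of 6 were called in place of 8 of 10 between gd14.5 and gd10.5 in WT and in KO, since fewer genes were tested. These comparisons called 4334 (WT) and 3880 (KO) of 19295 genes. Between gd16.5 and gd14.5 in WT the count was 2 in a fit of the 6 libraries (Prl3d2 and Prl4a1), which called 963 of 17129 genes. It was 0 to 1 with 1 library left out. Fits of 6 libraries gave 2 in place of 0 between gd19.5 and gd16.5 in WT (Prl3d1 and Prl3d2) and 1 in place of 0 between gd16.5 and gd14.5 in KO (Prl3d1). They called 368 of 17269 and 1421 of 17594 genes. In KO between gd19.5 and gd16.5 the count of 2 became 1 without the filter (542 of 39570 genes). It was also 1 with library totals as the scale (574 of 19299) and with copies summed (422 of 19295). DESeq2 on all 24 libraries gave 1 (512 of 39570), and leaving out 1 library gave 0 to 2. The highest count was 3, and the fit of the 6 libraries also called Prl2b1 (a fall by 1.27, adjusted p = 0.0485, edgeR).

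The replicate number as a block changed no count, with 8 called in both gd14.5 comparisons with gd10.5, and values of 1 (WT gd16.5 and gd14.5) and 2 (KO gd19.5 and gd16.5). Depth limits Prl3d3 after gd10.5 and Prl3d2 at late stages, and mapping limits the close copies. Changes under 2-fold were not simulated.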

Other observations

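Genes outside the prolactin family whose log2 CPM ran most like that of a hormone over the 24 libraries were ranked for 4 of the members by Pearson's r, with 5 genes for each. This is a description, in which the shared stages and libraries enter every pair. Closest to Prl3d1 were Star (r = 0.977), which moves cholesterol into mitochondria for steroid synthesis, Pkp3 (0.975), a plakophilin of desmosomes, Lsp1 (0.968), Gpihbp1 (0.965), which anchors lipoprotein lipase, and 1110038B12Rik (0.965). Closest to Prl3b1 were Btnl7-ps (0.982), Ceacam13 (0.982), Dnajb6 (0.979), a chaperone, Gskip (0.978) and Taf7l (0.977). Closest to Prl2c2 were Inpp4b (0.981), an inositol phosphatase, Tfpi (0.972), an inhibitor of coagulation, B4galnt4 (0.969), Otoa (0.966) and Fgd1 (0.965). Closest to Prl2b1 were Gm24715 (0.986), Sycp1-ps1 (0.985), the pregnancy-specific glycoprotein genes Psg18 (0.985) and Psg25 (0.983), and Ccr1l1 (0.983). Within groups, the deviations of Prl2c2 and Prl2c3 from their group means correlated at 0.93 over 24 libraries and at 0.95 without the gd10.5 KO libraries. Prl2c2 and Prl2c3 are close copies whose counts are uncertain.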
